A study of Mus musculus with 6 samples.

Results

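The entry of a B cell into the cell cycle is controlled in G1 by the D cyclins, which bind and activate the kinases CDK4 and CDK6. The active kinases phosphorylate the retinoblastoma protein RB1 and release the E2F transcription factors that RB1 holds back. Inhibitors of 2 families restrain this step: the CIP/KIP proteins p21 (Cdkn1a) and p27 (Cdkn1b), which bind cyclin-CDK complexes, and the INK4 proteins p18 (Cdkn2c) and p19 (Cdkn2d), which bind CDK4 and CDK6 themselves. Germinal center (GC) B cells divide rapidly, whereas naive B cells are mostly resting. In mice, cyclin D3 is known to be required for the GC reaction.

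The 10 genes examined here were chosen by name as the G1 control genes Ccnd1, Ccnd2, Ccnd3, Cdk4, Cdk6, Cdkn1a, Cdkn1b, Cdkn2c, Cdkn2d and Rb1, of 39179 gene identifiers measured by RNA-Seq. A value was found for 9 of them. Cdkn2d is not analysed here, because the identifier that the gene table at hand pairs with it has no row. GC B cells (Fas+GL7+) and naive B cells (Fas-GL7-, also called resting) were sorted from Peyer's patches of the ileum of WT C57BL/6 female littermates aged 12 wk. Cells of 5 mice were pooled for each of the 3 replicates per population, so differences between single mice cannot be seen. Expression is given in TPM, a unit that is scaled for transcript length and sums to the same total in every pool, so that levels of different genes can be compared.

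The sort was checked with marker genes. Fas, used for the sort, was at 114 ± 5.55 TPM in GC against 3.22 ± 0.314 TPM in naive B cells (SD, n = 3 pools each). Of other GC markers, Bcl6, the transcription factor of the GC program, had a mean of 250 ± 8.14 TPM in GC against 49.2 ± 2.33 TPM in naive B cells, and S1pr2, a receptor that keeps cells in the GC, had 268 ± 5.73 TPM against 0.789 ± 0.182 TPM (SD, n = 3 each). The B cell markers Cd79a, Cd79b, Ms4a1 and Pax5 were at 175 TPM or more in every pool. Of 5 T cell markers none passed 2 TPM in any pool. Of 4 plasma cell markers, Jchain (669 TPM in GC, 33.3 TPM in naive) and Prdm1 (5.01 and 0.955 TPM) were higher in GC B cells, and Sdc1 (1.51 and 3.19 TPM) and Xbp1 (104 and 120 TPM) were lower. The 5 myeloid markers summed to 0.836 to 2.31 TPM in the GC pools and 3.96 to 7.07 TPM in the naive pools. Of 5 stromal and endothelial markers, Pecam1, which B cells also express, was at 23.3 TPM in GC and 126 TPM in naive, and the others were at 1.05 TPM or less in every pool. The part of other cell types in the results below was not tested. The summed level of 6 epithelial markers (Krt8, Krt18, Krt19, Epcam, Vil1 and Cdh1) was between 22.2 and 38.0 TPM in the GC pools against 47.7 to 76.1 TPM in the naive pools. No pool stood apart from its population: across genes, log2(TPM + 1) values gave a Pearson's r of 0.963 to 0.972 for pools of the same population and of 0.806 to 0.814 for a GC with a naive pool. From the steps between low values, depth was estimated at 9650000 to 16100000 reads per pool, with naive replicate 2 the deepest.

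Stretches upstream of a D cyclin, a kinase and inhibitors of both families are shown here because these genes moved in different directions. RefSeq (build GRCm38.p6) gave 10 start sites for 7 of the 10 genes, and none for Ccnd1, Ccnd2 and Rb1. The 250 bases before a start site are printed 5′ to 3′ on the strand of the gene for Ccnd3 (the downstream of 2 start sites, chr17:47593217-47593466, plus strand), Cdk4 (chr10:127063285-127063534, plus strand), Cdkn2c (the upstream of 2 start sites, chr4:109666757-109667006, minus strand) and Cdkn1b (chr6:134920151-134920400, plus strand). Capitals mark every match, on either strand, to an E-box (CACGTG), a GC box (GGGCGG), a FoxO word (GTAAACA) or 1 of 4 E2F words (TTTCCCGC, TTTCGCGC, TTTGCCGC and TTTGGCGC).
Ccnd3: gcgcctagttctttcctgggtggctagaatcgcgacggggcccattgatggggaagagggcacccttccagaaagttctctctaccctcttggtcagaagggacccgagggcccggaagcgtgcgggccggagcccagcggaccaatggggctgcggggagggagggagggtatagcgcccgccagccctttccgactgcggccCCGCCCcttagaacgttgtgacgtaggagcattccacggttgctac
Cdk4: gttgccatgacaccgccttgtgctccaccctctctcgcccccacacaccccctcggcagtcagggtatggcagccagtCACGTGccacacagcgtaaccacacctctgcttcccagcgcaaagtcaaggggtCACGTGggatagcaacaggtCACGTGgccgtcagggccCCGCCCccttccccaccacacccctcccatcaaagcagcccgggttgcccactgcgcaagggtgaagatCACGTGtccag
Cdkn2c: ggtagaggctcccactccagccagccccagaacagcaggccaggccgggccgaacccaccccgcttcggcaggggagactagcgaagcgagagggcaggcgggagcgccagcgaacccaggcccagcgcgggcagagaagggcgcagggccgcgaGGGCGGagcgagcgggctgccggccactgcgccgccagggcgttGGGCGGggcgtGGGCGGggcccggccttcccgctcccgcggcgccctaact
Cdkn1b: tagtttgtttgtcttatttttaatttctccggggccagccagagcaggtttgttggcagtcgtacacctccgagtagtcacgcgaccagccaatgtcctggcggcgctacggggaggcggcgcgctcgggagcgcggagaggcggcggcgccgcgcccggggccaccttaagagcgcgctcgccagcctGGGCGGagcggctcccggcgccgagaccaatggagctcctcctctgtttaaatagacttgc

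The Cdk4 stretch held 1 GC box and 4 E-boxes, the DNA word bound by MYC-MAX and related factors. The E-boxes end 6, 93, 113 and 167 bases before the start site. Of the same 250 bases before all 32851 RefSeq start sites, 6.02% held at least 1 E-box, and 7 start sites of 5 genes (0.0213%) held at least 4. The Cdkn2c stretch held 3 GC boxes and no E-box, and the Cdkn1b and Ccnd3 stretches held 1 GC box each. A GC box occurred before 32.7% of all start sites. None of the 4 E2F words was found in the 10 stretches searched, and 1.86% of all start sites had at least 1 of them. A FoxO word occurred once, before the upstream start site of Ccnd3 (not printed), and before 3.17% of all start sites. These matches describe letters only and were not tested for binding.

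GC and naive B cells were compared to ask which G1 control genes differ between dividing and resting B cells of the same tissue. The test was limma on log2(TPM + 1) over the 12785 genes that reached 1 TPM in 3 or more pools, and a gene was called at an adjusted p under 0.05 (Benjamini-Hochberg over all genes tested). Many genes differed between these populations: 65.6% of all genes tested were called, with 35.5% higher in GC B cells and 30.1% lower there. Ccnd1 did not pass the filter on low values, and 8 of the 10 genes were tested. All 8 were called, of which 5 were higher in GC (Ccnd3, Cdk4, Cdk6, Cdkn1a and Cdkn2c) and 3 were higher in naive B cells (Ccnd2, Cdkn1b and Rb1). The GC and naive pools did not overlap in any of the 8, as in 70.7% of all genes tested. Their median absolute difference was 1.43 log2 units, against 0.54 over all genes tested. The genes were chosen with earlier results of these data known, so this comparison is a description only. In bulk RNA, a smaller share of cells that express a gene and less RNA per cell cannot be told apart. TPM is a share of the RNA of each pool, so a lower value can also go with more total RNA per cell.

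**Figure D1:**
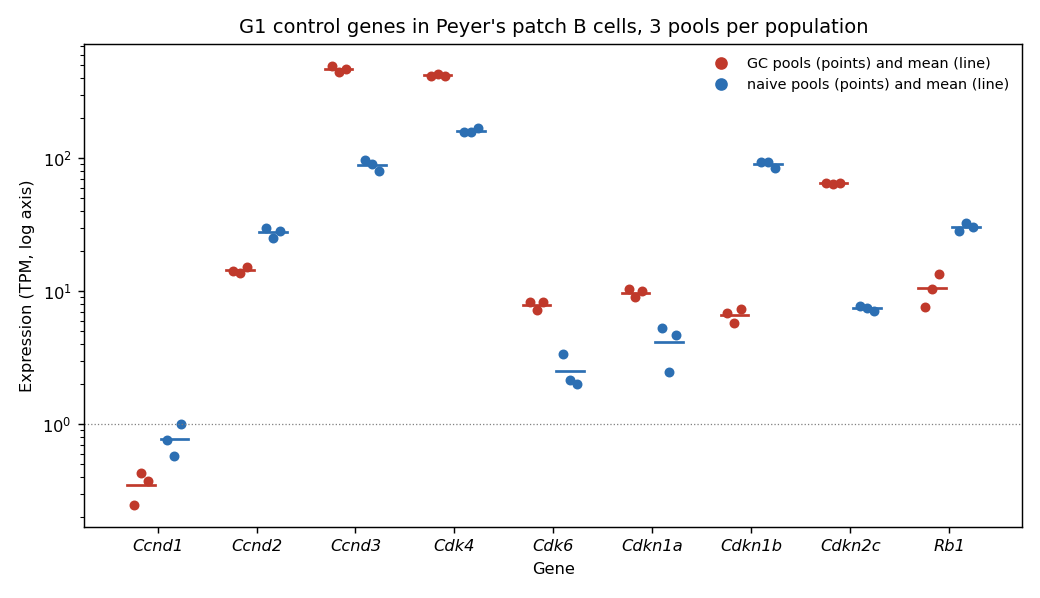
Expression of the 9 measured G1 control genes in TPM (log axis) in each GC pool (red points) and naive pool (blue points), with the mean of each population as a line and 1 TPM as a dotted line. The GC points lie above the naive points for Ccnd3, Cdk4, Cdk6, Cdkn1a and Cdkn2c, and below them for Ccnd1, Ccnd2, Cdkn1b and Rb1.

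Among the D cyclins, Ccnd3 was far higher in GC than in naive B cells, while Ccnd2 was lower. Ccnd3 (ENSMUSG00000034165), which encodes cyclin D3, reached 494, 445 and 472 TPM in the GC pools (replicates 1, 2 and 3, an order kept below) against 96.3, 90.6 and 79.9 TPM in the naive pools. Every GC pool was thus far above every naive pool. The mean was 5.29 times as high in GC B cells (log2 difference 2.39 ± 0.08 SE, limma adjusted p = 1.25e-06). By mean level, Ccnd3 ranked 283 among the 12562 genes that reached 1 TPM in GC B cells and 1706 among 12314 in naive B cells.

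Ccnd2 (ENSMUSG00000000184), which encodes cyclin D2 and is known as an early response gene of activated B cells, went the other way. Its level was 14.2, 13.8 and 15.2 TPM in the GC pools and 29.7, 25.3 and 28.3 TPM in the naive pools. Each naive pool was above each GC pool, and the naive mean was 1.93 times the GC mean (log2 difference -0.90 ± 0.09 SE, limma adjusted p = 0.000145). Of the tested genes, 69.4% had a smaller absolute difference than Ccnd2, so its change was modest beside that of Ccnd3.

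Ccnd1 (ENSMUSG00000070348), which encodes cyclin D1 and is typically low in lymphocytes, was near the limit of measurement. It had 0.248, 0.429 and 0.376 TPM in the GC pools against 0.756, 0.575 and 1.01 TPM in the naive pools. The groups did not overlap, but both were low, and the gene entered a test only when the filter was dropped (log2 difference -0.39 ± 0.12 SE, limma adjusted p = 0.0439 over 20845 genes). The same direction was seen for 5 of the 6 epithelial markers. An annotated gene on the opposite strand, Oraov1 (18.3 TPM in GC against 27.0 TPM in naive B cells), shares 818 of the 3835 exon bases of Ccnd1 in the NCBIM37 annotation. The part of either in the Ccnd1 values was not tested.

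The D cyclin transcripts differed in both amount and makeup. The 3 genes summed to 508, 460 and 487 TPM in the GC pools, and to 127, 116 and 109 TPM in the naive pools, a ratio of means of 4.13. Ccnd3 held 97.2%, 96.9% and 96.8% of this sum in the GC pools and 76.0%, 77.8% and 73.1% in the naive pools. Nearly all of the remainder was Ccnd2, with 2.97% ± 0.167 in GC and 23.7% ± 2.12 in naive B cells (SD, n = 3). Ccnd3 thus exceeded Ccnd2 32.7 ± 1.92 times in GC and 3.22 ± 0.382 times in naive B cells (SD, n = 3). An exact permutation test over the 6 pools (two-sided) gave p = 0.1 for the sum and for the share of Ccnd3, which is the smallest p that 3 against 3 pools allow, and the adjusted value over the 6 such comparisons of sums and shares was 0.12.

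**Figure D2:**
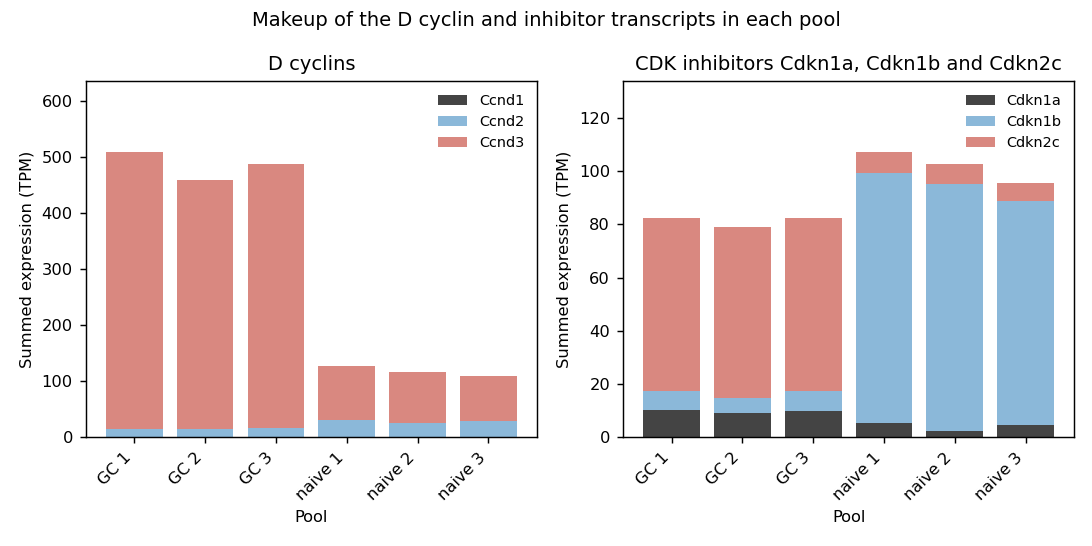
Stacked bars give the summed expression in TPM of the D cyclins (left) and of the inhibitors Cdkn1a, Cdkn1b and Cdkn2c (right) in each pool, with 1 colour per gene and axes that start at 0. The D cyclin sum was 4.13 times as high in GC as in naive B cells and was mostly Ccnd3, whereas the inhibitor sums differed less and changed from mostly Cdkn1b in the naive pools to mostly Cdkn2c in the GC pools.

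Both catalytic partners were higher in GC B cells. Cdk4 (ENSMUSG00000006728) had 412, 432 and 418 TPM in the GC pools against 157, 156 and 167 TPM in the naive pools. The GC mean was 2.63 times the naive mean (log2 difference 1.39 ± 0.04 SE, limma adjusted p = 1.11e-06), and pools of the same population differed little. Even in naive B cells Cdk4 was among the more abundant transcripts, with a higher level than 93.0% of the genes that reached 1 TPM.

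Cdk6 (ENSMUSG00000040274) encodes the closest relative of CDK4 and was expressed at a much lower level. It had 8.24, 7.27 and 8.25 TPM in the GC pools against 3.40, 2.15 and 2.0 TPM in the naive pools. The GC pools were all higher, with a ratio of means of 3.15 (log2 difference 1.36 ± 0.17 SE, limma adjusted p = 0.00054). On the log2(TPM + 1) scale the differences of Cdk4 and Cdk6 were thus close in size. With a pseudocount of 0.1 TPM they were 1.39 for Cdk4 and 1.65 for Cdk6. Cdk6 held 1.85% ± 0.169 of the summed Cdk4 and Cdk6 level in GC and 1.55% ± 0.500 in naive B cells (SD, n = 3), and these shares overlapped between the populations (exact permutation test, two-sided, p = 0.4). The sum of both kinases was 429 ± 9.35 TPM in GC against 163 ± 5.95 TPM in naive B cells (SD, n = 3; exact permutation test, p = 0.1, the smallest possible).

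The inhibitors changed in opposite directions. Cdkn1b (ENSMUSG00000003031), which encodes p27, an inhibitor that accumulates in resting lymphocytes, fell most: it had 6.90, 5.79 and 7.30 TPM in the GC pools against 94.0, 92.9 and 83.9 TPM in the naive pools. The naive mean was 13.5 times the GC mean (log2 difference -3.58 ± 0.10 SE, limma adjusted p = 6.07e-07). Of all 12785 genes tested, 351 had a larger absolute difference.

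Cdkn2c (ENSMUSG00000028551), which encodes p18, an INK4 inhibitor of CDK4 and CDK6, was instead high in the dividing population. It had 65.0, 64.3 and 65.0 TPM in the GC pools against 7.76, 7.43 and 7.13 TPM in the naive pools, so that the GC values were nearly identical. The ratio of means was 8.71 (log2 difference 2.96 ± 0.06 SE, limma adjusted p = 2.81e-07), and 538 genes had a larger absolute difference.

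Cdkn1a (ENSMUSG00000023067), which encodes p21 and is induced by p53 after DNA damage, showed a smaller increase. It had 10.3, 9.0 and 9.98 TPM in the GC pools against 5.29, 2.49 and 4.73 TPM in the naive pools. All GC pools were above all naive pools, with a ratio of means of 2.34 (log2 difference 1.1 ± 0.23 SE, limma adjusted p = 0.00553). Among the 8 tested genes its standard error was the largest, and naive replicate 2, the deepest pool, had the lowest value.

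The summed level of these 3 inhibitors changed less than its composition. It was 82.3, 79.1 and 82.3 TPM in the GC pools and 107, 103 and 95.7 TPM in the naive pools. Cdkn1b made up 88.6% ± 1.52 of it in naive and 8.19% ± 0.802 in GC B cells, and Cdkn2c made up 7.31% ± 0.119 in naive and 79.8% ± 1.33 in GC B cells (SD, n = 3). Of the summed Cdkn1a and Cdkn1b level alone, Cdkn1b held 95.6% ± 1.57 in naive and 40.5% ± 1.61 in GC B cells (SD, n = 3, exact permutation test, two-sided, p = 0.1, the smallest possible). The sum of Cdkn1a and Cdkn1b was 16.4 ± 1.43 TPM in GC against 94.4 ± 5.43 TPM in naive B cells (SD, n = 3). The D cyclin sum was 5.97 ± 0.189 times the sum of the 3 inhibitors in GC and 1.15 ± 0.0274 times in naive B cells (SD, n = 3). Cdkn1c, Cdkn2a and Cdkn2b were left out and Cdkn2d has no value here, so none of these sums covers the whole CIP/KIP or INK4 family.

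The RB1 substrate of the kinases was lower in GC B cells at the RNA level. Rb1 (ENSMUSG00000022105) had 7.58, 10.5 and 13.5 TPM in the GC pools against 28.2, 32.7 and 30.2 TPM in the naive pools. The populations did not overlap, although the GC pools spread more than for the other members above 1 TPM (coefficient of variation 28.0%). The naive mean was 2.89 times the GC mean (log2 difference -1.48 ± 0.19 SE, limma adjusted p = 0.00059). In the NCBIM37 annotation 408 of 6015 exon bases of Rb1 are shared with Lpar6 on the opposite strand, which was at 1.14 TPM in GC against 17.2 TPM in naive B cells. Another 488 are shared with Rcbtb2 (19.0 and 15.8 TPM), also on the opposite strand. Whether reads of Lpar6 add to the Rb1 value was not tested. The same kind of overlap exists between Ccnd3 and Bysl (353 of 2255 exon bases), with Bysl at 17.3 TPM (GC) against 11.8 TPM (naive). Cdk4 overlaps Tspan31 in the same way (604 of 3249 exon bases), with Tspan31 at 9.76 TPM (GC) against 29.9 TPM (naive). By mean, Bysl stayed below Ccnd3, and Tspan31 below Cdk4, in each population. How far reads of Bysl or Tspan31 add to the values of Ccnd3 or Cdk4 was not tested.

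The order of the levels changed between the populations. In GC B cells it ran Ccnd3, Cdk4, Cdkn2c, Ccnd2, Rb1, Cdkn1a, Cdk6, Cdkn1b and Ccnd1, and the pool ranges of neighbours overlapped for Rb1 with Cdkn1a and for Cdk6 with Cdkn1b. In naive B cells it ran Cdk4, Cdkn1b, Ccnd3, Rb1, Ccnd2, Cdkn2c, Cdkn1a, Cdk6 and Ccnd1, and the ranges overlapped for Cdkn1b with Ccnd3, for Rb1 with Ccnd2, and for Cdkn1a with Cdk6. Cdkn1b thus stood in second place in naive B cells, level with Ccnd3, and in eighth place in GC B cells.

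**Figure D3:**
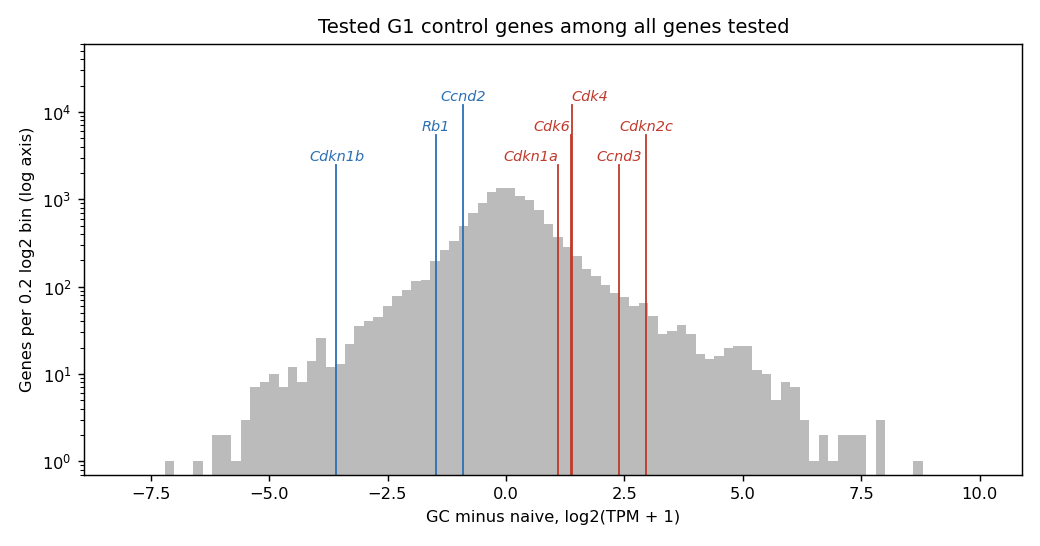
Histogram of the GC minus naive difference on the log2(TPM + 1) scale over 12785 genes tested, in bins of 0.2 log2 units with a log axis for the number of genes, and with the 8 tested G1 control genes marked by lines (red, higher in GC; blue, higher in naive). Cdkn1b (-3.58), Cdkn2c (2.96) and Ccnd3 (2.39) lie in the tails, and Ccnd2 (-0.90) lies nearest to 0.

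Other genes of G1 control were taken from 7 lists of 36 genes, of which 34 were tested. Of these, 24 were called higher in GC, 4 higher in naive B cells, and 6 were not called, where 35.5% of all genes tested were higher in GC B cells and 30.1% lower there. Of the 24, 8 were later cyclins and proliferation markers. The median log2 difference of the 34 genes was 1.18, against 0.03 over all genes tested. These lists, too, were chosen with earlier results known, so the counts and medians are a description only. The later cyclins and proliferation markers were higher in GC B cells in 8 of 8 cases (median 6.02). Mki67, which marks cycling cells, was at 228 ± 1.04 TPM in GC against 0.785 ± 0.107 TPM in naive B cells, and Cdk1, the mitotic kinase, was at 147 ± 2.12 TPM and 0.598 ± 0.314 TPM (SD, n = 3 each). Both were under 1 TPM in each naive pool, as were Cdkn2a, Cdkn3, Ccne2 and Dtl. These genes passed the filter only through their GC pools, which fixed the direction of any call.

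The 2 pocket proteins related to RB1 moved in opposite directions. Rbl1, which encodes p107, was at 52.8 ± 1.14 TPM in GC against 10.5 ± 0.728 TPM in naive B cells (SD, n = 3; log2 difference 2.23, limma adjusted p = 1.17e-06). Rbl2, which encodes p130, the pocket protein of resting cells, was at 25.4 ± 2.61 TPM in GC against 36.1 ± 1.05 TPM in naive B cells (SD, n = 3; log2 difference -0.49, limma adjusted p = 0.00225). Among the 3 pocket proteins, Rbl1 alone was higher in GC B cells.

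All 4 genes of the cyclin E and CDK2 step, which follows cyclin D in late G1, were called higher in GC B cells. Of all genes tested, 35.5% were. Ccne2 had 37.3, 28.0 and 23.6 TPM in the GC pools against 0.554 to 0.852 TPM in the naive pools (log2 difference 4.13). As it passed the filter only through its GC pools, its call (limma adjusted p = 4.19e-06) adds nothing to these values. Ccne1, the other E cyclin, was already expressed in the naive pools, at up to 15.9 TPM, and was higher in the GC pools, at 29.0, 31.3 and 31.3 TPM (log2 difference 1.08, limma adjusted p = 0.000116). Cdk2 and the phosphatase Cdc25a, which activates it, differed by 1.05 and 1.85 log2 units (limma adjusted p = 5.22e-06 and adjusted p = 4.17e-06).

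The other CDK inhibitors were low in every pool, except Cdkn3 in GC B cells. Cdkn3, a phosphatase that acts on CDKs and whose RNA is typical of cycling cells, had 53.6, 63.9 and 54.7 TPM in the GC pools. In the naive pools it was listed at 0, 0.137 and 0.219 TPM. Cdkn2a, whose locus encodes p16 and ARF, had 1.05, 1.73 and 1.37 TPM in the GC pools, while every naive pool listed it at 0. Cdkn3 and Cdkn2a passed the filter only through their GC pools. Their calls (limma adjusted p = 2.9e-07 and adjusted p = 0.000574) thus add nothing to these values. Like the other genes under 1 TPM in each naive pool, they were not tested in the fits that left out a GC pool. Cdkn2a was also not tested with FPKM as deposited, and Cdkn2b was missing from some alternative fits as well. Cdkn2b, which encodes p15, was not called, with values of 0.683 to 1.81 TPM in GC and 0.865 to 1.88 TPM in naive B cells (log2 difference -0.31, 95% interval -0.98 to 0.37, limma adjusted p = 0.369). Cdkn1c, which encodes p57, was at 1.02 TPM or less in every pool and was not tested.

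Of 10 tested genes that control the stability of D cyclins and CIP/KIP proteins, 6 were higher in GC B cells, 2 were lower there and 2 were not called, beside 35.5% higher and 30.1% lower over all genes tested. Cks1b, the cofactor that lets the SCF ligase recognize p27, was at 166 ± 2.53 TPM in GC against 4.15 ± 0.407 TPM in naive B cells (SD, n = 3; log2 difference 5.02, limma adjusted p = 1.13e-07). Dtl, a substrate receptor of the CUL4 ligase that targets p21 in S phase, was at 44.5 ± 4.24 TPM and 0.586 ± 0.0904 TPM (SD, n = 3, log2 difference 4.84). Dtl passed the filter only through its GC pools, so its call (limma adjusted p = 3.22e-07) adds nothing to these values. Skp2, the F-box protein that binds p27 together with CKS1B and was singled out after its values were seen, was at 14.4 ± 1.14 TPM and 2.49 ± 0.333 TPM (SD, n = 3; log2 difference 2.15, limma adjusted p = 1.13e-05). The 2 genes that were lower in GC B cells, also singled out after their values were seen, encode substrate receptors of ligases that act on D cyclins. Fbxo4 was at 14.4 ± 2.81 TPM in GC against 23.7 ± 3.10 TPM in naive B cells (SD, n = 3; log2 difference -0.68, limma adjusted p = 0.00835). Ambra1 was at 19.3 ± 0.672 TPM in GC against 25.5 ± 1.22 TPM in naive B cells (SD, n = 3; log2 difference -0.38, limma adjusted p = 0.00277).

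The CDK-activating kinase phosphorylates CDK4 and CDK6 in their activation loop. Of its 3 subunits 2 were called, beside 65.6% of all genes tested. Mnat1 and Ccnh were higher in GC B cells (log2 differences 1.02 and 0.47, limma adjusted p = 9.12e-05 and adjusted p = 0.00101), and its kinase Cdk7 was not called (-0.13, 95% interval -0.35 to 0.09, limma adjusted p = 0.243). Of the FoxO and GSK3 genes, Foxo3, a transcription factor known to activate Cdkn1b, was lower in GC B cells, at 4.65 ± 0.559 TPM against 20.3 ± 1.95 TPM in naive B cells (SD, n = 3; log2 difference -1.91, limma adjusted p = 1.97e-05). Foxo1 was not called (-0.10, 95% interval -0.24 to 0.05, limma adjusted p = 0.212), although it was called lower in GC B cells under quantile normalization (-0.24, limma adjusted p = 0.00544) and 3 other alternatives. Gsk3b, a kinase that marks cyclin D for degradation, was slightly higher in GC B cells (0.44, limma adjusted p = 0.00181). Gsk3a was not called (0.02, 95% interval -0.09 to 0.13, limma adjusted p = 0.712), and its sign turned under 3 other scalings, with a call lower in GC B cells under quantile normalization (-0.12, limma adjusted p = 0.0474).

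**Figure D4:**
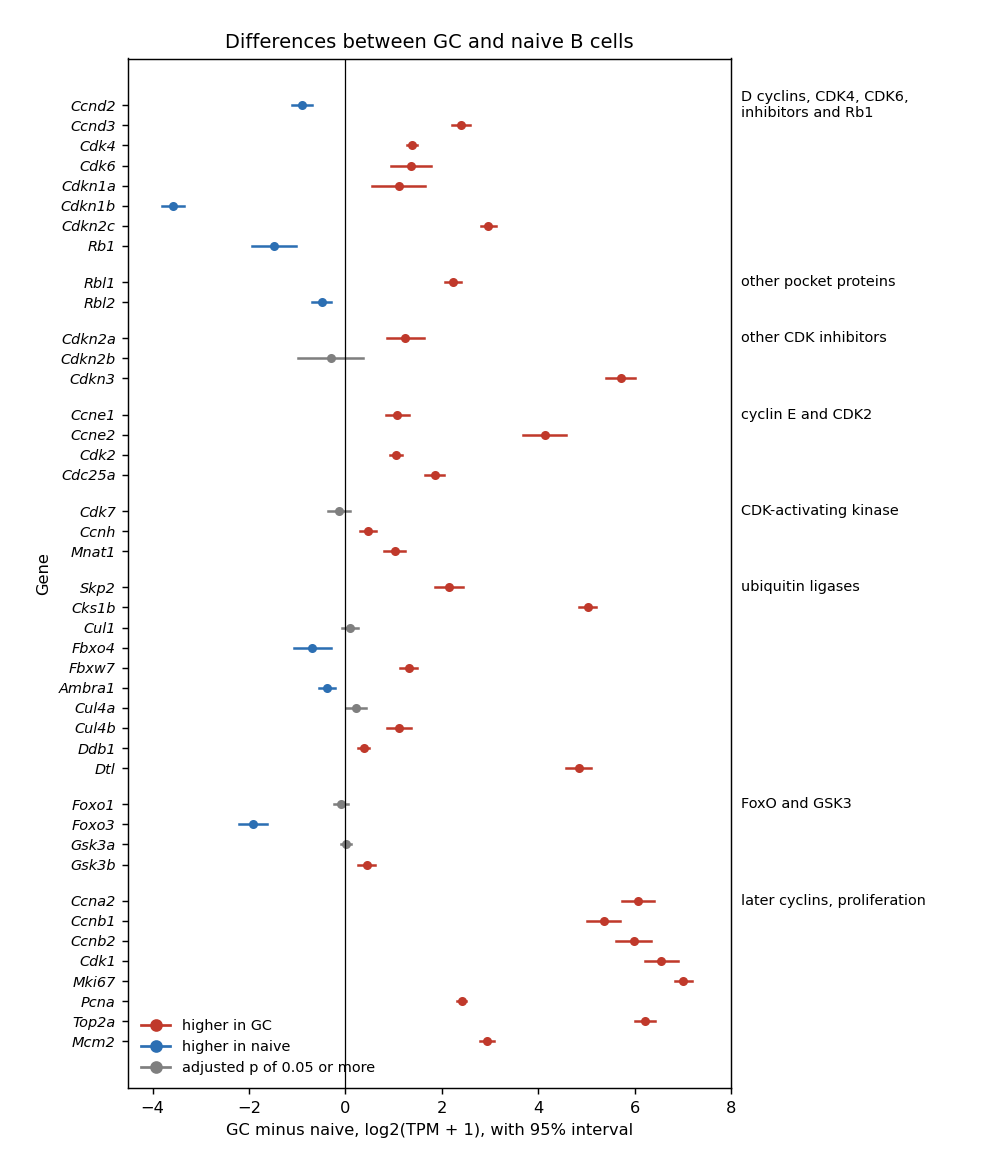
GC minus naive difference on the log2(TPM + 1) scale (points) with the 95% interval of limma (lines) for the 8 tested G1 control genes and 34 genes of 7 related lists, in red where called higher in GC, blue where called higher in naive B cells, and grey where the adjusted p was 0.05 or more. The 8 later cyclins and proliferation markers lie to the right of 0, whereas Ccnd2, Cdkn1b, Rb1, Rbl2, Fbxo4, Ambra1 and Foxo3 were called on the left.

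For Ccnd3, Cdk4 and Cdkn1b, which had the largest absolute difference on the log2(TPM + 1) scale among the D cyclins, kinases and inhibitors (Cdk4 only narrowly, at 1.39 against 1.36 for Cdk6, an order that turned with a pseudocount of 0.1), the genes with the most similar pattern were sought as those with the smallest root mean square difference in log2(TPM + 1), each gene centred on its mean, over the 6 pools and 12123 other tested genes with a symbol. They were Btnl2 (0.0356 log2 units), Psmc3ip (0.0573) and Dstn (0.0609) for Ccnd3. For Cdk4 they were Marcksl1 (0.0231), Ranbp1 (0.0257) and Pmf1 (0.0284). For Cdkn1b they were Cd72 (0.0639), Sh2d2a (0.0729) and Gm1966 (0.0902). The measure rests on 6 pools of 2 populations and is a description only. Cd72, a B cell coreceptor, was for example at 108 TPM in GC against 1250 TPM in naive B cells, a log2 difference of -3.52 beside -3.58 for Cdkn1b.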

How the data were processed

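RNA-Seq libraries of 3 GC and 3 naive B cell pools were examined. The authors trimmed reads with cutadapt 1.9, ran RSEM 1.2.25 against mouse transcripts of NCBIm38 v75, and deposited 1 FPKM value for each gene in each pool. RSEM divides reads shared by similar genes. The RSEM parameters listed in the methods hold no strand option, so reads from exon bases shared on opposite strands cannot be assigned by strand. Each FPKM was divided by its pool total and multiplied by 1000000 to give TPM. The gene table named 33398 of 39179 identifiers. Depth was estimated from FPKM steps of genes with 1 transcript of 250 to 900 bp, of which 62.4% to 67.2% of low values lay within 0.1 of a whole read, so no count test was used and no counting intervals are given.

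Genes were tested with limma 3.58.1 in R 4.3.3 (eBayes with trend, two-sided) on log2(TPM + 1), a scale that understates changes of low genes. Sums and shares were compared by exact permutation tests (scipy 1.17.1). Named genes were the members, all genes of lists of up to 4, the 2 largest differences of longer lists, the markers, and the 3 nearest patterns of 3 members. Members and lists were chosen with earlier results of these data known. Some marker genes are not reported here. Of the names asked for, Cdkn2d, Fbxo31 and Ighd had no matching row. The labels do not tie pools of the same number to the same mice, so no pairing was used. The limma p-values set the difference between the populations against the spread between pools, not between single mice. Alternatives covered pseudocounts, filters, scalings, the replicate block, a fit without trend, and fits that each left out 1 pool.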

Additional observations from a re-analysis of the deposited data

How the results depend on the processing

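The direction and call of the 8 tested members held in all 120 values from the alternative fits (8 genes in 15 fits), with log2 differences between 2.25 and 2.45 for Ccnd3, between -3.76 and -3.49 for Cdkn1b, between 2.86 and 3.12 for Cdkn2c and between 0.84 and 1.30 for Cdkn1a. The adjusted p of Cdkn1a ranged up to 0.0195. Over all genes, leaving out each pool in turn gave between 7095 and 7740 calls against 8392, and quantile normalization turned the majority, with 4080 genes higher in GC B cells and 4450 lower there, against 4540 and 3852. Gsk3a, not called, changed sign with FPKM as deposited (-0.031), with size factors (-0.020), with quantile normalization (-0.122, where it was called) and without GC replicate 3 (-0.0046, in a range of -0.0046 to 0.034 over the fits that each left out 1 pool). Foxo1 was called in 4 alternatives (-0.15 with FPKM as deposited, -0.14 with size factors, -0.24 with quantile normalization, and -0.15 without naive replicate 3). The cause was not tested. The sums and shares of each role kept their direction in every alternative computed. A scaling cannot alter a share within a pool, and the block cannot alter any of these differences in means. Only leaving out a pool could thus move the shares. The difference in the share of Ccnd3 among D cyclins was then between 20.1 and 22.4 percentage points. Pools with the same number deviated together only weakly (r of 0.083, 0.0225 and 0.0456), although 5 of 6 pools, all but naive replicate 2, correlated best with their own number. With the replicate number as a block (replicate block), 7960 genes were called, and no call among the members changed. FPKM without counts limits what can be said of Ccnd1, Cdkn1c, Cdkn2a and Cdkn2b, all near 1 TPM or lower.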
